A study of Homo sapiens with 6 samples.

Results

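The genes described here are 40 members of the nuclear factor kappa B (NF-kB) pathway, measured by RNA-Seq in A549 cells, an established line from a human lung adenocarcinoma. They were chosen by name from their known roles, with earlier results of these data known. They comprise the transcription factor subunits, their inhibitors, and the receptors, adaptors and kinases that lead to them. Cytokine and chemokine genes that the factors are known to switch on are included too. All 40 were found among the 23180 gene symbols of the deposited count table. The study asked what the loss of KMT9α does to gene expression. KMT9α is the catalytic subunit of a histone methyltransferase and is encoded by N6AMT1. Samples labelled siControl (3 samples) received a control siRNA, and samples labelled siRNA_KMT9a (3 samples, called siKMT9α here) received an siRNA against KMT9α, which the study's methods name siKMT9α#1 and follow with RNA isolation on the third day after transfection. All 6 samples share the genotype label WT and passage 11, and total RNA was taken. A single siRNA sequence against KMT9α was sequenced, in a single cell line, so effects of KMT9α loss and other effects of that siRNA cannot be told apart.

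NF-kB factors are dimers of NFKB1, NFKB2, REL, RELA and RELB proteins that wait in the cytoplasm, bound by inhibitors of the IkB family. Signals from receptors for tumor necrosis factor or interleukin 1 have the inhibitors degraded, and the freed dimers enter the nucleus and switch on inflammatory genes together with the genes of their own inhibitors. A slower branch runs through lymphotoxin beta receptor and the kinase encoded by MAP3K14, which leads to the processing of NFKB2 protein and to RELB-containing dimers. Lung epithelial cells use both branches to produce chemokines that attract neutrophils and monocytes.

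With every gene represented by its most abundant transcript, the libraries held 15551780 to 18568634 counts with siControl and 13740098 to 19832394.5 with siKMT9α. N6AMT1 itself, in counts per 1000000 counts of the library, corrected by normalization factors (CPM), stood at 10.2, 10.8 and 11.5 with siControl and at 2.87, 3.22 and 3.35 with siKMT9α. Its log2 fold change (log2FC), siKMT9α against siControl, stood at -1.77 with a standard error (SE) of 0.12 and an adjusted p of 1.42e-10 (quasi-likelihood test of edgeR, Benjamini-Hochberg adjusted over all genes tested), so the targeted transcript was lower in each library labelled for its knock-down. The epithelial keratin transcripts of A549 cells were abundant, and the 5 epithelial markers summed to 3214.3 to 3576.2 CPM with siControl and to 1724.7 to 1815.5 with siKMT9α, a fall whose part in the results was not tested. The sum was mostly KRT8 and KRT18, and KRT19 and EPCAM fell too, while CDH1 rose from 3.39 to 8.62 CPM (log2FC 1.34, adjusted p = 3.11e-07). Of 7 leukocyte markers, CD3E and MS4A1 had no count in any library and PTPRC had at most 3 counts in a library. CD14 and ITGAM were detected and tested. CD14 had means of 3.55 CPM with siControl and 1.92 with siKMT9α (log2FC -0.86, adjusted p = 0.000233). ITGAM had means of 1.06 and 0.931 CPM and did not pass the test (adjusted p = 0.684). The leukocyte list summed to 3.98 to 5.43 CPM with siControl and 2.78 to 3.37 with siKMT9α, so the leukocyte markers did not move up with the cytokine genes described here. SFTPA1, SFTPB and SFTPC, 3 of 4 markers of alveolar type II cells, had at most 3 counts in any library.

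Of the 40 NF-kB genes, 38 had enough counts to be tested, and 29 of them were higher and 5 were lower with siKMT9α at an adjusted p under 0.05. Most genes of these cells differed between the groups, and of all 13877 genes tested 37.1% were higher and 38.5% were lower by the same rule. The count of higher NF-kB genes is to be read against the first of these shares, and the 5 lower ones against the second. By the study's own threshold (an unadjusted p under 1e-08 and a log2 fold change beyond 0.26 in either direction), 19 members were higher and 2 were lower, where 24.2% of all genes tested passed, 13.5% higher and 10.7% lower. Over all genes these were 1878 higher and 1479 lower, and with library size alone 1516 and 1862, while the members then counted 16 higher and 2 lower. The median log2 fold change of the members was 0.605, beside -0.01 over all genes tested. In 15 members the difference was a rise of more than 2-fold, which 10.1% of all genes tested showed, and in 3 it was a fall of more than 2-fold, which 10.3% showed. The siControl and siKMT9α values did not overlap in 33 of the 38 members (86.8%) and in 77.0% of all genes tested. In RNA from whole cultures, fewer cells expressing a gene and less RNA per cell cannot be told apart.

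**Figure D1:**
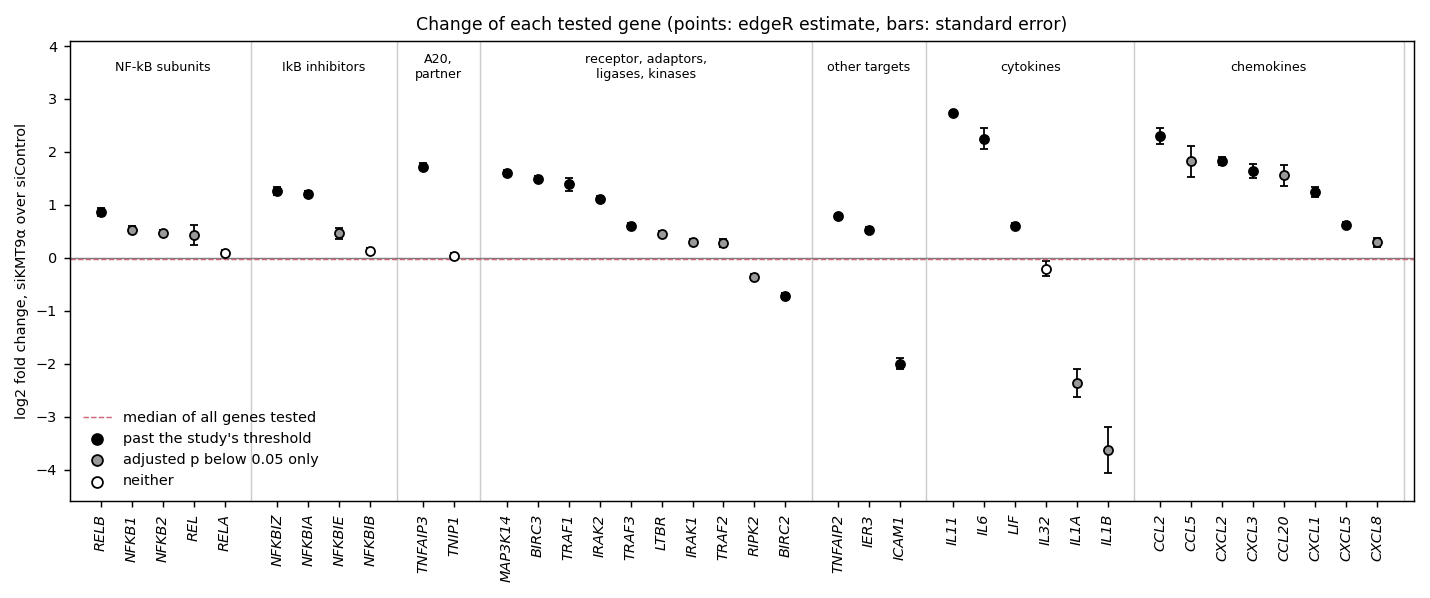
Log2 fold change of each tested NF-kB gene, siKMT9α against siControl, with bars of 1 standard error, grouped by role. Most points lie above 0, from 0.04 for TNIP1 to 2.73 for IL11, and the points below 0 are IL1B, IL1A, ICAM1, BIRC2, RIPK2 and IL32, of which IL32 was not called.

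Among the 5 subunit genes, RELB rose furthest, NFKB1, NFKB2 and REL rose by less, and RELA, which encodes the main activating subunit, did not pass the test. RELB, the partner of processed NFKB2, had 18.6, 21.9 and 23.5 CPM with siControl and 38.4, 40.01 and 38.5 with siKMT9α. The groups were far apart, and its log2FC was 0.87 (SE 0.08, adjusted p = 4.6e-09). NFKB2 had 89.1, 94.6 and 97.9 CPM against 133.1, 133.8 and 125.1, a log2FC of 0.48 (SE 0.05, adjusted p = 7.95e-08). NFKB1 had 27.5, 27.5 and 25.4 CPM against 37.5, 39.4 and 39.2, a log2FC of 0.53 (SE 0.06, adjusted p = 3.37e-07). Both precursor genes were thus higher in every siKMT9α library, and both missed the study's threshold, which RELB alone of the 5 subunits passed. REL was scarce, at 1.89, 2.41 and 2.21 CPM with siControl and 3.55, 2.81 and 2.56 with siKMT9α. Its log2FC of 0.43 (SE 0.19, adjusted p = 0.0429) rested on 35.5 to 49 counts a library, and the call was lost without siControl replicate 1 (adjusted p = 0.12), siControl replicate 3 (0.0714), siKMT9α replicate 1 (0.198) or siKMT9α replicate 2 (0.0576), and with library size alone (0.119) or DESeq2 (0.113). RELA had 94.0, 106.7 and 99.3 CPM with siControl and 110.8, 104.9 and 102.3 with siKMT9α. These groups overlapped, with a log2FC of 0.08 (SE 0.05, adjusted p = 0.166) that turned to -0.02 when samples were scaled by library size alone and had an adjusted p of 0.0413 without siControl replicate 2. Per kilobase of transcript, RELA had the highest level of the subunits in siControl cells (39.1 CPM per kb), followed by NFKB2 (31.3), RELB (9.47), NFKB1 (6.65) and REL (0.843). With siKMT9α, NFKB2 stood at 43.6 CPM per kb and RELA at 41.5.

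**Figure D2:**
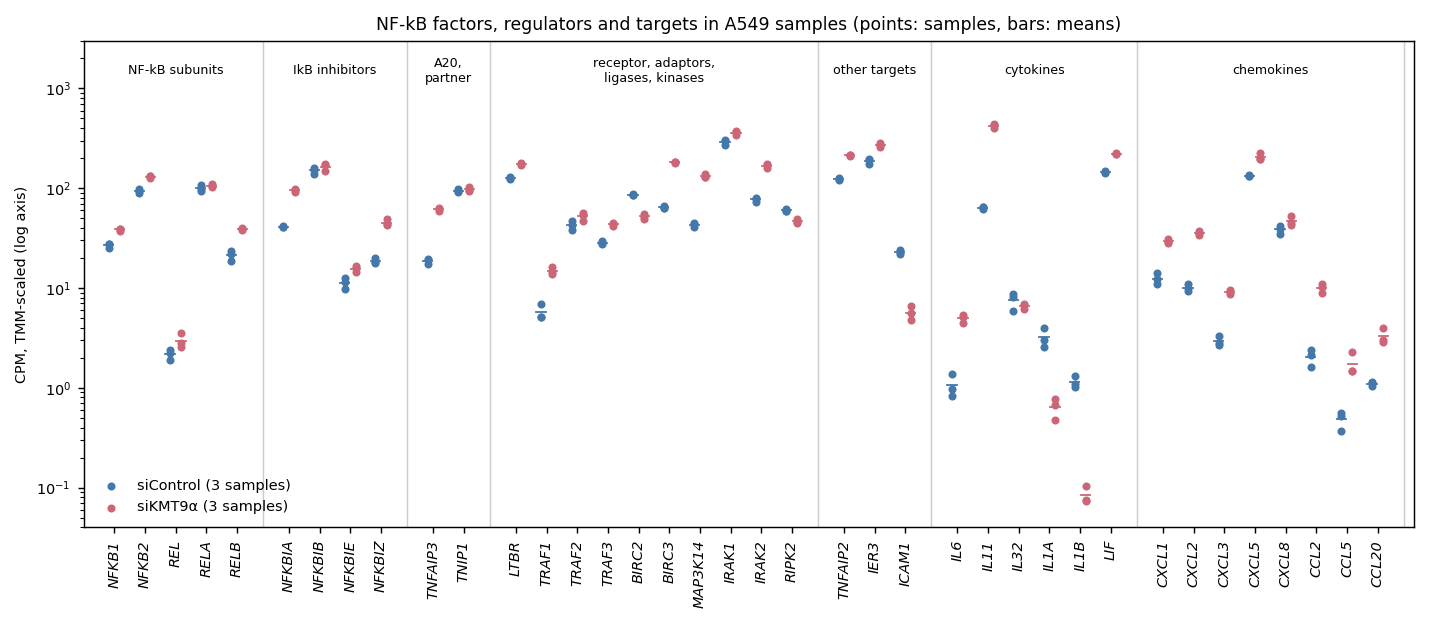
CPM of each of the 38 tested NF-kB genes in each of the 6 libraries, on a log axis, grouped by role, with siControl and siKMT9α points side by side. The groups separate for 33 genes, with wide gaps for IL1B and IL11, and overlap for RELA, NFKBIB, TNIP1, TRAF2 and IL32.

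NF-kB switches on the genes of its own inhibitors, and of the 4 IkB family members NFKBIA and NFKBIZ more than doubled while NFKBIE rose by less and NFKBIB did not pass the test. NFKBIA encodes the classical inhibitor that is degraded and made anew with each round of signaling. Its transcript lies on chromosome 14 of hg19, from 35870716 to 35873960 on the minus strand. It had 40.9, 40.5 and 42.1 CPM with siControl and 96.9, 98.8 and 90.6 with siKMT9α, a log2FC of 1.21 (SE 0.05, adjusted p = 1.67e-13). NFKBIZ encodes a nuclear IkB protein that works with NF-kB dimers at IL6 and other genes. Its values were 19.9, 18.4 and 17.9 CPM against 43.3, 42.3 and 48.6, with a log2FC of 1.26 (SE 0.07, adjusted p = 7.4e-12). For both genes the lowest siKMT9α library lay above 2 times the highest siControl library. NFKBIE, another cytoplasmic inhibitor, had 9.72, 12.7 and 11.4 CPM against 15.8, 16.5 and 14.3, a log2FC of 0.46 (SE 0.10, adjusted p = 0.000463). NFKBIB had 138.1, 153.7 and 159.5 CPM against 175.9, 169.8 and 148.8. Its groups overlapped, with a log2FC of 0.13 (SE 0.06, adjusted p = 0.0698). The call of NFKBIB was gained without siControl replicate 3 (adjusted p = 0.0247) or siKMT9α replicate 3 (0.0027), with RLE factors (0.0465) and without a filter on low counts (0.0157). Its most abundant listed transcript, NR_040515, carries a noncoding accession, and the other 2 of its transcripts had log2 fold changes down to 0.0004.

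TNFAIP3, whose product A20 removes ubiquitin chains from signaling proteins and so ends NF-kB signaling, rose more than any subunit or IkB gene of the list. It lies on chromosome 6 of hg19 from 138188581 to 138204449 on the plus strand. It had 17.6, 18.9 and 19.7 CPM with siControl and 63.3, 59.7 and 62.1 with siKMT9α, a log2FC of 1.72 (SE 0.06, adjusted p = 1.13e-14). TNIP1, which encodes a ubiquitin-binding partner of A20, had 92.1, 97.6 and 94.1 CPM against 101.7, 92.9 and 96.8. These values overlapped, and the log2FC of 0.04 (SE 0.05, adjusted p = 0.501) became -0.07 with library size alone. TNFAIP3 thus passed the test and TNIP1 did not, and the difference between their changes was not tested.

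The promoters of NFKBIA, TNFAIP3 and IL6 are shown because sites for NF-kB near their starts are a known feature of these genes and can be read directly. They are RefSeq promoter sequence (build GRCh38.p14), printed 5′ to 3′ on the strand of the gene, with the matches to the NF-kB consensus site on either strand in capitals.
NFKBIA, chr14:35404811-35404840, minus strand: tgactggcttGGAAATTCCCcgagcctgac
TNFAIP3, chr6:137867188-137867217, plus strand: ctttGGAAAGTCCCgtGGAAATCCCCgggc
IL6, chr7:22727117-22727146, plus strand: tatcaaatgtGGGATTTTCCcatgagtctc
The match of NFKBIA began 81 bases before the annotated start and that of IL6 73 bases before it. TNFAIP3 held a pair of matches, beginning 67 and 55 bases before its start. A match is a run of letters and was not measured as a bound site in these samples.

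All 10 receptor, adaptor and kinase genes passed the adjusted p threshold, 8 of them higher and 2 lower. Of all genes tested, 75.6% passed it. The study's threshold was passed by 5 higher and 1 lower of the 10, and by 24.2% of all genes tested. The slow branch is well represented among the 10 genes. MAP3K14 encodes the NF-kB inducing kinase at its head. It lies on chromosome 17 of hg19 from 43340488 to 43394414 on the minus strand and had 40.7, 43.9 and 45.1 CPM with siControl and 138.4, 128.7 and 128.1 with siKMT9α, a log2FC of 1.61 (SE 0.06, adjusted p = 3.85e-15). Its span overlaps that of MAP3K14-AS1, and since the use of strand in counting is not given in the sources used here, reads of the sense and antisense genes cannot be told apart. LTBR, the lymphotoxin beta receptor that feeds the branch, was higher by 0.46 on the log2 scale (SE 0.05, adjusted p = 4.86e-08), from 122.2 to 130.6 CPM in siControl libraries and from 169.5 to 178.3 in siKMT9α libraries. TRAF3, TRAF2, BIRC2 and BIRC3 encode the complex that keeps the kinase low in resting cells.

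BIRC2 and BIRC3, which encode the related ubiquitin ligases cIAP1 and cIAP2, moved in opposite directions. BIRC3 had 63.7, 66.1 and 63.6 CPM with siControl and 183.0, 180.2 and 181.7 with siKMT9α, a log2FC of 1.49 (SE 0.05, adjusted p = 1.26e-15). BIRC2 had 86.9, 84.7 and 85.7 CPM against 51.2, 49.5 and 55.7, so that it fell by 0.71 on the log2 scale (SE 0.05, adjusted p = 5.27e-10). Per kilobase of transcript the order of the paralogs was reversed, from 23.02 CPM per kb for BIRC2 and 9.35 for BIRC3 in siControl cells to 13.99 and 26.4 in siKMT9α cells. The genes are neighbors on the plus strand of chromosome 11 of hg19, BIRC3 from 102188181 to 102210135 and BIRC2 from 102217966 to 102249401, with 7.83 kb between them. The longest stretch that their annotated transcripts share is 60 bases, and 0.296% of the 50-base windows of BIRC2 also occur in BIRC3. TRAF3 had 28.2, 27.5 and 29.5 CPM against 44.5, 42.0 and 43.4, a log2FC of 0.61 (SE 0.06, adjusted p = 3.22e-08). TRAF2 rose by 0.29 on the log2 scale (adjusted p = 0.00273; 0.18 with library size alone), although its groups overlapped, with 38.3 to 47.2 CPM against 46.6 to 56.3. Its span overlaps that of the microRNA gene MIR4479.

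TRAF1, an adaptor whose gene is itself switched on by NF-kB, and the kinase genes of the interleukin 1 receptor arm complete this group. TRAF1 had 5.12, 6.98 and 5.12 CPM with siControl and 13.9, 16.3 and 14.5 with siKMT9α, a log2FC of 1.39 (SE 0.12, adjusted p = 3.2e-09). IRAK2 had 77.7, 73.2 and 80.6 CPM against 176.1, 170.3 and 157.8, a log2FC of 1.12 (SE 0.05, adjusted p = 5.51e-13). IRAK1, with the higher level per kilobase of the pair, had 269.3, 295.9 and 304.3 CPM against 370.4, 364.9 and 340.9, a smaller log2FC of 0.31 (SE 0.05, adjusted p = 3.52e-05) that missed the study's threshold and was 0.20 with library size alone. RIPK2, the kinase downstream of NOD receptors, fell from 59.0 to 61.5 CPM in siControl libraries to 44.9 to 49.5 in siKMT9α libraries, a log2FC of -0.36 (SE 0.06, adjusted p = 1.08e-05).

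The 3 remaining target genes split, TNFAIP2 and IER3 rising and ICAM1 falling. TNFAIP2, induced by tumor necrosis factor, had 124.2, 122.0 and 125.8 CPM with siControl and 215.1, 210.4 and 216.0 with siKMT9α, a log2FC of 0.79 (SE 0.05, adjusted p = 7.88e-12). IER3, an early response gene, had 174.1, 193.2 and 194.5 CPM against 272.8, 280.7 and 255.9, a log2FC of 0.53 (adjusted p = 3.44e-08). It had the highest level per kilobase of the 40 genes in both groups, 151.4 CPM per kb with siControl and 218.1 with siKMT9α. ICAM1, the adhesion molecule through which leukocytes hold on to epithelium and a textbook NF-kB target, went the other way. It lies on chromosome 19 of hg19 from 10381517 to 10397291 on the plus strand and had 22.01, 24.1 and 23.2 CPM against 4.799, 5.55 and 6.57, so that it fell by 2.00 on the log2 scale (SE 0.10, adjusted p = 1.52e-12).

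The cytokine genes had the widest range of changes of these groups. Of 8, IL6, IL11 and LIF were higher, IL1A and IL1B were lower, IL32 did not pass the test, and TNF and CSF2 had too few counts to be tested. IL6, IL11 and LIF belong to one cytokine family, which signals through the shared receptor gp130. IL11 lies on chromosome 19 of hg19 from 55875757 to 55881814 on the minus strand. Its values were 61.9, 64.5 and 65.3 CPM with siControl and 441.9, 426.9 and 400.9 with siKMT9α, means of 63.9 ± 1.76 and 423.2 ± 20.7 (SD, n = 3 each). The log2FC of 2.73 (SE 0.05, adjusted p = 2.47e-18) was the largest rise of the 38 tested genes, a 6.62-fold difference of means. By level per kilobase IL11 went from rank 11 of the 40 genes in siControl cells (27.3 CPM per kb) to rank 2 in siKMT9α cells (180.5). IL6, on chromosome 7 of hg19 from 22766766 to 22771621 on the plus strand, had a far lower level per kilobase (0.901 with siControl), with 0.823, 1.39 and 0.962 CPM against 5.33, 4.42 and 5.13. Its log2FC was 2.25 (SE 0.20, adjusted p = 3.84e-09), on 15.5 to 22.5 counts a library with siControl and 60.5 to 98 with siKMT9α. LIF, the cytokine with the highest level per kilobase in siControl cells, had 142.5, 146.5 and 148.1 CPM against 219.7, 221.8 and 223.4, a log2FC of 0.60 (SE 0.05, adjusted p = 3.8e-10).

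Both interleukin 1 genes were lower. They lie near each other on chromosome 2 of hg19, IL1A from 113531492 to 113542971 and IL1B from 113587337 to 113594356, both on the minus strand and 44.4 kb apart. IL1A had 2.58, 4.01 and 2.99 CPM with siControl and 0.680, 0.767 and 0.471 with siKMT9α, a log2FC of -2.36 (SE 0.27, adjusted p = 1.53e-07). IL1B had 25, 17.5 and 19.5 counts with siControl and 1, 1 and 2 with siKMT9α. The summed 62 against 4 counts give a level 13.4 times as high with siControl (95% exact interval 4.97 to 50.6, for counting error only), and the test over all genes gave an adjusted p of 3.04e-07. IL32, a cytokine of lymphocytes and epithelium, ranged from 5.92 to 8.74 CPM with siControl and from 6.15 to 6.95 with siKMT9α. Its log2FC of -0.20 (SE 0.14, adjusted p = 0.186) did not pass the test, which it did without siControl replicate 1 (adjusted p = 0.0186). TNF had 2, 0 and 0 counts with siControl and 6, 3 and 2 with siKMT9α. The ratio of summed TNF levels was 6.48, with an exact 95% counting interval of 1.41 to 60.2, and without the filter on low counts the adjusted p of TNF was 0.0269. CSF2 had 1, 0 and 0 counts against 0, 1 and 1, and a difference was not detectable at this depth.

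The chemokine genes were uniform in direction: all 8 were higher at an adjusted p under 0.05, where 37.1% of all genes tested were higher. Their groups did not overlap, as in 77.0% of all genes tested, and their median log2FC was 1.60. The study's threshold was passed by 5 (CXCL1, CXCL2, CXCL3, CXCL5 and CCL2), where 13.5% of all genes tested passed it as higher. CXCL8, CXCL1, CXCL5, CXCL3 and CXCL2, which encode ligands of the neutrophil receptors, stand in this order within 358.8 kb of chromosome 4 of hg19, from 74606223 to 74964997. CXCL2 had 9.96, 10.9 and 9.44 CPM with siControl and 37.1, 34.0 and 36.0 with siKMT9α, a log2FC of 1.82 (SE 0.08, adjusted p = 9.28e-14). CXCL3 had 3.32, 2.69 and 2.81 CPM against 8.81, 9.17 and 9.47, a log2FC of 1.64 (SE 0.13, adjusted p = 7.64e-10). CXCL1 had 13.97, 12.3 and 11.0 CPM against 28.6, 28.4 and 30.7, a log2FC of 1.24 (SE 0.09, adjusted p = 1.22e-10). These 3 close paralogs share stretches of up to 97 bases between CXCL2 and CXCL3, 77 between CXCL1 and CXCL2 and 55 between CXCL1 and CXCL3 in their annotated transcripts, so how their counts were divided is uncertain. Windows of 50 bases found in both members of a pair made up at most 5.63% of a transcript.

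CXCL5 had the highest level per kilobase of the cluster and rose by less, from 134.8, 132.3 and 133.7 CPM to 194.6, 198.0 and 225.7, a log2FC of 0.63 (SE 0.06, adjusted p = 4.17e-09). CXCL8, which encodes interleukin 8, had the smallest rise of the 8. Its values of 41.6, 39.2 and 35.01 CPM against 44.7, 43.1 and 52.8 gave a log2FC of 0.29 (SE 0.08, adjusted p = 0.0023), which became 0.19 without siKMT9α replicate 3 (adjusted p = 0.0227) and 0.18 with library size alone (adjusted p = 0.0377). Changes of the 5 listed genes of the cluster thus ranged from 0.29 (CXCL8) to 1.82 (CXCL2) on the log2 scale.

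CCL2, the monocyte attractant, rose furthest of the chemokines. It lies on chromosome 17 of hg19 from 32582296 to 32584220 on the plus strand and had 2.39, 1.61 and 2.13 CPM with siControl and 10.2, 8.95 and 11.0 with siKMT9α, a log2FC of 2.30 (SE 0.15, adjusted p = 5.3e-11). CCL20 and CCL5, which attract lymphocytes, were scarce. CCL20 rose from 1.04, 1.14 and 1.12 CPM to 2.87, 3.98 and 3.03 (log2FC 1.56, SE 0.21, adjusted p = 1.33e-06). CCL5 rose from 0.372, 0.556 and 0.520 CPM to 1.47, 2.27 and 1.47 (log2FC 1.83, SE 0.29, adjusted p = 1.45e-05), on 7 to 10 counts a library with siControl and 19.5 to 31 with siKMT9α.

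The starts of the 4 CXCL genes past the study's threshold are shown because they carry an identical NF-kB site at a similar distance from the start. The lines give 30 bases of RefSeq promoter sequence (GRCh38.p14), 5′ to 3′ on the strand of the gene, with the match in capitals.
CXCL1, chr4:73869305-73869334, plus strand: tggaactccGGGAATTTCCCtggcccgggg
CXCL2, chr4:74099253-74099282, minus strand: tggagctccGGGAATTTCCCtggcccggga
CXCL3, chr4:74038748-74038777, minus strand: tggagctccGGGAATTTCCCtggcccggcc
CXCL5, chr4:73998748-73998777, minus strand: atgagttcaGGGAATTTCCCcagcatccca
The match began 79 bases before the start in CXCL1 and CXCL3, 78 before it in CXCL2 and 91 before it in CXCL5. Over the 100 bases before the start, CXCL1 and CXCL2 were identical at 95 aligned bases, CXCL3 was identical to each of them at 90, and CXCL5 matched the others at 49 to 54. The first 10 bases of the shared site, GGGAATTTCC, or their reverse complement, GGAAATTCCC, occurred in 51 of the 35116 promoter windows of the table (0.145%). Among the NF-kB genes, 9 held it, namely CXCL1, CXCL2, CXCL3, CXCL5, NFKB1, NFKBIA, NFKBIB, NFKBIZ and REL. Of these, NFKBIB did not pass the test (log2FC 0.13, adjusted p = 0.0698), and the call of REL was lost under several alternatives. CXCL8 had no full match to the consensus in its window, and sites that depart from the consensus were not searched.

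In all, 33 of the 40 genes had an entry in the promoter table, which holds 300 bases for each annotated start (250 before it and 50 after), and the 7 without one were RELB, CCL2, RIPK2, LIF, IER3, NFKBIE and CCL5. The NF-kB consensus matched in 18 of the 33 (54.5%) and in 20 of their 45 windows (44.4%), where 11.3% of all windows of this length and 17.4% of the 10314 tested genes in the table held a match. The list was chosen from known NF-kB regulators and targets, so a high share of matches follows in part from that choice. This share is not a result of the knock-down. Of the 18 genes with a match, 15 were higher and 0 were lower at an adjusted p under 0.05. Of all genes tested, 37.1% were higher and 38.5% were lower by this rule. These shares were not computed for all tested genes with a match. Of the 38 tested members, with or without a match, 29 were higher and 5 were lower. CXCL1, CXCL2 and CXCL3 are counted separately although their promoters are nearly identical. Among the 18 genes with a match, the count of lower genes was 0 also at an unadjusted p under 0.05, and by DESeq2 or the likelihood-ratio test of edgeR. Without siControl replicate 1, however, IL32 was called lower. The 18 genes had a median log2FC of 0.92 and a range of -0.20 (IL32) to 2.25 (IL6). Of the 13 tested genes without a match, 8 were higher and 4 were lower (BIRC2, ICAM1, IL1A and IL1B), with a median of 0.29 and a range of -3.63 (IL1B) to 2.73 (IL11). Over all tested genes in the table the median was 0.05 for the 1794 with a match and -0.02 for the 8520 without. The absence of a match says only that these letters are not in this window, and MAP3K14, TRAF1, IRAK2, TNFAIP2 and IL11 rose without one. Only full matches were counted, so a site that departs from the consensus at any fixed base was missed. Genes without a match, ICAM1 and CXCL8 among them, may therefore still hold an NF-kB site in the window. Sites farther from the start were not searched.

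**Figure D3:**
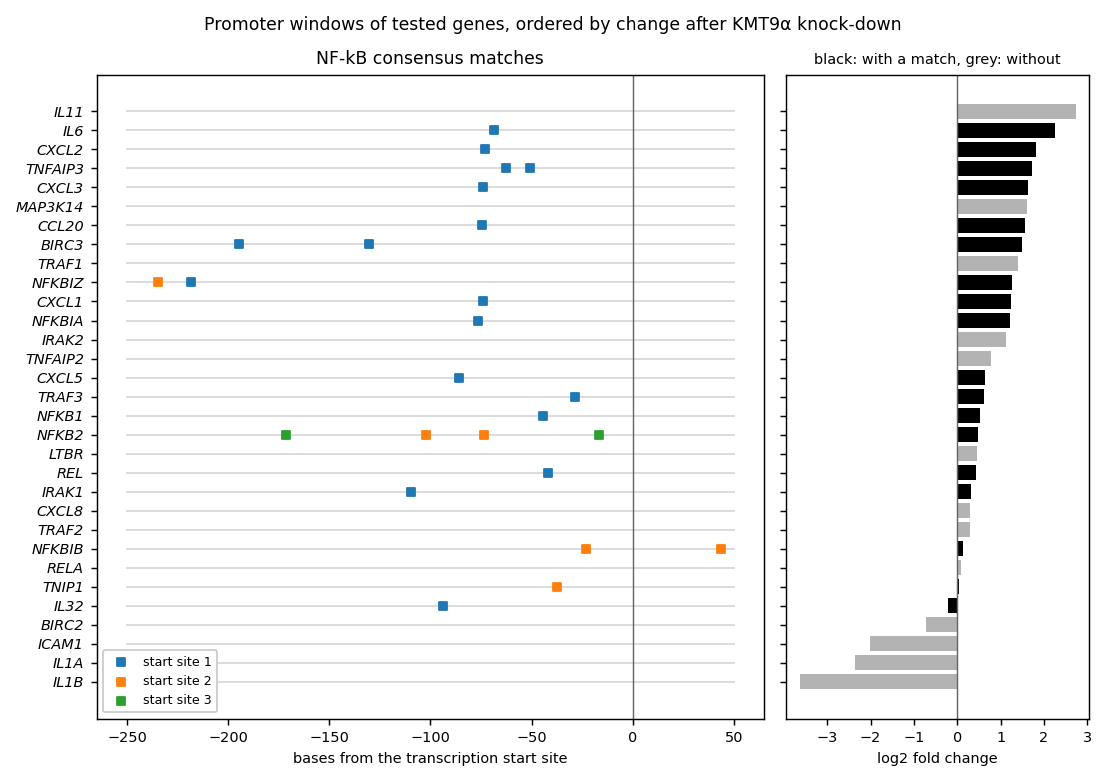
Positions of NF-kB consensus matches, in bases from the annotated start, in the promoter windows of the tested NF-kB genes. The log2 fold change of each gene stands beside its row, in black for genes with a match and in grey for genes without. The matches of CXCL1, CXCL2, CXCL3, CXCL5, NFKBIA, IL6 and CCL20 lie between 91 and 64 bases before the start.

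Around these 40 genes, a list of 82 other genes of the pathway (receptors, kinases, ubiquitin enzymes, further IkB genes, further targets and cytokine receptors) had 62 tested members, of which 30 were higher and 16 were lower, with a median log2FC of 0.13. That is 74.2% called in either direction, beside 75.6% of all genes tested, so the pooled share was near the background. By direction, the 30 higher and 16 lower genes are to be read against 37.1% higher and 38.5% lower of all genes tested. With library size alone, the same counts were 28 higher and 24 lower. The study's threshold was passed by 10 higher and 4 lower genes, 22.6% of those tested. Of all genes tested, 24.2% passed it, 13.5% higher and 10.7% lower, so this share too was near the background. Without siKMT9α replicate 2, the threshold was passed by 7 higher and 2 lower genes of the list. With the likelihood-ratio test in place of the quasi-likelihood test, 19 higher and 7 lower genes passed it. Of the 11 further kinases, the IkB kinase genes among them, the adjusted p called 5 higher and 3 lower. That is 72.7% called, near the 75.6% of all genes tested. The study's threshold was passed by 0 of these kinases and by 24.2% of all genes tested. The other 2 IkB family genes were both higher, BCL3 by 0.57 and NFKBID by 0.93 on the log2 scale (adjusted p = 3.21e-07 and 0.00634). IL1R1, the signaling receptor for interleukin 1, rose from 9.88, 8.43 and 8.37 CPM to 34.95, 34.4 and 37.3, a log2FC of 2.00 (SE 0.08, adjusted p = 5.55e-14). IL1R2, the decoy receptor for the same ligands, had 67, 45 and 63 counts with siControl and 1, 3 and 4 with siKMT9α, a log2FC of -4.16 (SE 0.32, adjusted p = 5.81e-10). Within the interleukin 1 system, the signaling receptor was thus higher and the decoy receptor and both ligand genes were lower.

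Past the study's threshold, the largest other rises among the wider pathway were MALT1 (1.18), a protease of the adaptor complex, and the survival genes BCL2A1 (1.14) and BCL2L1 (1.08). Without siKMT9α replicate 2, BCL2A1 no longer passed the study's threshold. The largest other falls past that threshold were TNFRSF9, a costimulatory receptor gene (-2.23, from 45.6 to 9.56 CPM), IL6ST, which encodes the gp130 receptor of IL6, IL11 and LIF (-0.85, from 397.5 to 220.2 CPM), and RBCK1, a subunit of the linear ubiquitin ligase (-0.56). IL6ST and RBCK1 did not pass without siKMT9α replicate 2. NOD2, the bacterial sensor upstream of RIPK2, was named after its values were seen. It had 6, 8 and 12.5 counts with siControl and no count with siKMT9α, at least 7.49-fold lower against a floor of 3 counts over the group, and was not tested.

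**Figure D4:**
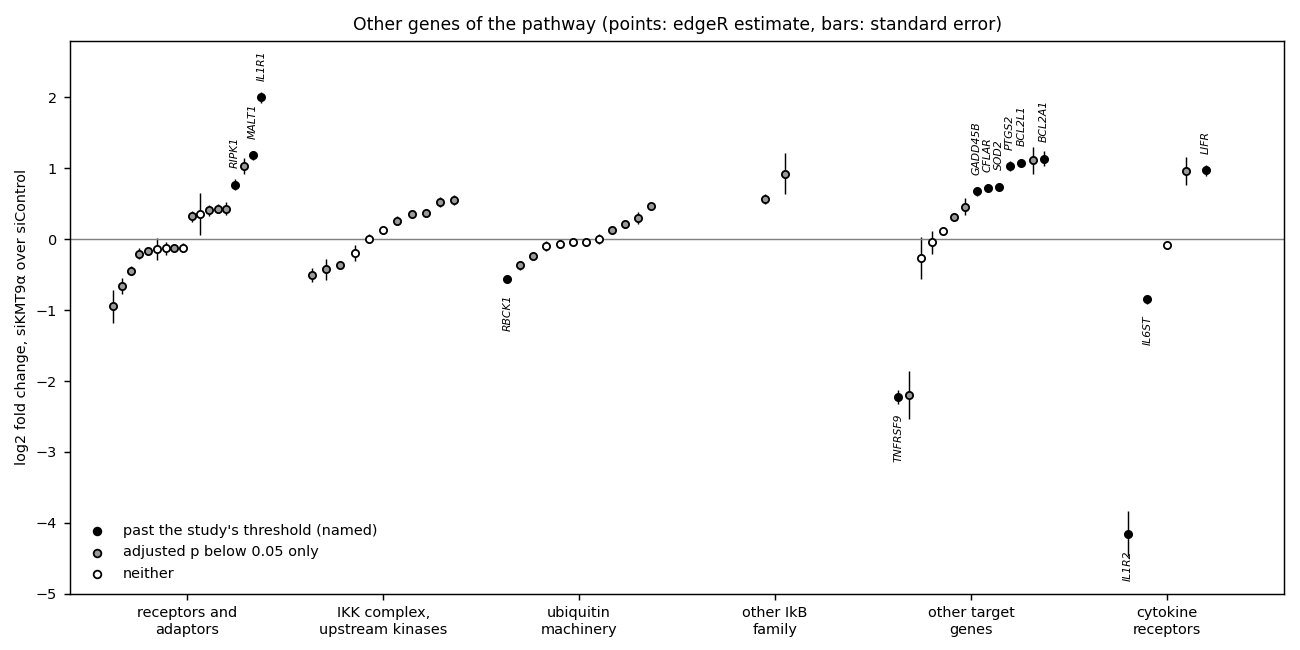
Log2 fold change of the 62 other NF-kB pathway genes tested, siKMT9α against siControl, 1 point per gene, grouped by function. IL1R1 stands highest at 2.00 and IL1R2 lowest at -4.16, and the kinases lie between -0.50 and 0.55.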

How the data were processed

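RNA-Seq of A549 cells was analysed for 3 siControl and 3 siKMT9α samples, which the labels call biological replicates without naming separate cultures, so p-values cover only the spread between these samples. The authors aligned reads to hg19 with STAR and used HOMER for counting on RefSeq transcripts, and the deposited estimated counts are not normalized. Fractional values made up 36.4%, in steps of 0.5. HOMER's counting options, strand and the library type are not given in the sources used here. The deposited fold change (a ratio), p-value and adjusted p-value columns hold the authors' own comparison and were not used. The 1182 rows without symbol and counts were left out, and the transcript with the most counts stood for its gene. For 12 members more than 1 transcript was tested, with no change of sign among them.

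Counts were rounded and fitted with edgeR 4.0.16 (R 4.3.3; TMM, filterByExpr, quasi-likelihood F test, two-sided), with Benjamini-Hochberg adjustment over 13877 genes. Every adjusted p in the text comes from this fit unless another is named. The biological coefficient of variation was 4.47%. The smallest p of an exact permutation test of 3 against 3 is 0.1. CPM were scaled by TMM factors, and levels per kb used the listed transcript lengths. Intervals cover counting error only. The script was tested on simulated data.

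The members, lists and tests were chosen with earlier results of these data known. All 40 members are given. Those of the wider pathway named are the 4 largest changes in each direction past the study's threshold, the other 2 IkB genes, and NOD2. Strands and shared stretches came from GENCODE v44 on GRCh37, and overlaps from the deposited transcript spans. The promoter search took only full matches to the NF-kB consensus, on both strands, and merged overlapping matches. Same-numbered samples showed no shared deviation (correlations -0.0621, 0.0151 and -0.07), and the main fit did not pair the samples. Alternatives were RLE factors, library size alone, DESeq2 1.42.0, the likelihood-ratio test, no filter, a minimum of 10 counts in every sample, a fit of every transcript, a replicate block and each sample left out.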

Additional observations from a re-analysis of the deposited data

How the results depend on the processing

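Of the alternative values computed for single members, 514 kept direction and side of the threshold, 6 passed it newly, 7 no longer passed it and 2 reversed, RELA to -0.0216 and TNIP1 to -0.0674, both with library size alone, which shifted the median of all genes by -0.11 on the log2 scale. The count of higher members at an adjusted p under 0.05 stayed at 28 to 30 with a library left out, and by the study's threshold it was 14 to 21. The 5 lower members became 3 with at least 10 counts in every sample, since IL1A and IL1B were then not tested, and 5 to 6 with a library left out. The 2 lower members by the study's threshold became 5 with the likelihood-ratio test, 4 without a filter and 2 to 3 with a library left out. In the wider pathway, the 10 higher genes by the study's threshold became 19 with the likelihood-ratio test, 19 without a filter, 6 with the replicate block and 7 to 13 with a library left out. Its 4 lower genes became 7 with the likelihood-ratio test, 2 with the replicate block and 2 to 4 with a library left out, and its counts by the adjusted p were 29 to 32 higher and 13 to 16 lower with a library left out, and 28 higher and 24 lower with library size alone. With the replicate number as a block, the adjusted p called 28 members higher and 5 lower, and the counts were 14 and 2 by the study's threshold, and REL lost its call (adjusted p = 0.0557). No sample correlated best with its own number (0 of 6), so no deviation shared by same-numbered samples was seen. With 3 samples in each group, this cannot exclude that same-numbered samples were handled together. Depth limited TNF and CSF2, which were not tested, and IL1A and IL1B, which had under 10 counts in a library.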
